A study of Homo sapiens with 6 samples.

Results

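SPINK5, SPINK1 and 6 kallikrein peptidases (KLK5, KLK6, KLK7, KLK8, KLK10 and KLK11) were examined by their gene symbols, as 8 of the 19973 genes in a table of read counts and FPKM values (read counts scaled to the depth of the library and the length of the gene). The samples were cells of OVCAR3, an ovarian cancer line of human origin that has long been established in culture, which carried either shNC, a control hairpin, or shNUF2, a hairpin against the kinetochore gene NUF2. The shNUF2 plasmid drives its hairpin from a U6 promoter and carries puromycin resistance, and both groups were selected with puromycin for stable lines, so that the controls had also been through transfection and selection. RNA was sequenced in 3 libraries per group, from a stranded mRNA kit. A single NUF2 hairpin was used, and the sources do not say whether the libraries of a group came from separate cultures, so that p-values may measure only technical spread. The total counts were between 13057534 and 16995452 per library.

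SPINK5 (also called LEKTI) is a secreted inhibitor with many Kazal-type domains that blocks kallikrein peptidases, above all KLK5, KLK7 and KLK14, in the outer layers of the skin, where loss of SPINK5 causes Netherton syndrome. Kallikreins are secreted trypsin- or chymotrypsin-like serine proteases made as inactive precursors that activate each other in cascades, and several of them (KLK5, KLK6, KLK7, KLK8, KLK10 and KLK11) are known for high levels in ovarian carcinoma. SPINK1 is a small Kazal-type inhibitor of trypsin, first known from the pancreas and also secreted by some tumours.

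The 8 genes lie in 2 clusters. According to the deposited positions (GRCh38.p13), SPINK5 (ENSG00000133710) spans 148025683 to 148137382 on the plus strand of chromosome 5, and SPINK1 (ENSG00000164266) spans 147824572 to 147831671 on the minus strand, 194.0 kb away. The kallikreins lie on chromosome 19 within a run of 265 kb, from 50819146 to 51084245. The deposited span has its lowest coordinate at 50943303 for KLK5 (KLK6 at 50958631, KLK7 at 50976468, KLK8 at 50996007, KLK10 at 51012739 and KLK11 at 51022216), all on the minus strand.

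The promoter sequences of the SPINK genes are shown because these were the genes whose levels differed, in opposite directions. They are the 250 bases before the RefSeq start on GRCh38.p14, chr5:148063730-148063979 on the plus strand for SPINK5 and chr5:147831672-147831921 on the minus strand for SPINK1, 5′ to 3′. Capitals mark every match, on either strand and with overlaps allowed, to 4 motifs. The TATA box was searched as TATAAA. The site of the AP-1 factors was searched as TGANTCA. That of the STAT factors was searched as TTCNNNGAA. That of the TEAD factors was searched as GGAATG.
SPINK5: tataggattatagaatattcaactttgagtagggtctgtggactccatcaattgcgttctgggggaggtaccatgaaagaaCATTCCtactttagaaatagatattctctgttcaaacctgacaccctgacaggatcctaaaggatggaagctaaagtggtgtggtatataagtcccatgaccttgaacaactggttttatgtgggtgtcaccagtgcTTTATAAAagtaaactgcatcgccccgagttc
SPINK1: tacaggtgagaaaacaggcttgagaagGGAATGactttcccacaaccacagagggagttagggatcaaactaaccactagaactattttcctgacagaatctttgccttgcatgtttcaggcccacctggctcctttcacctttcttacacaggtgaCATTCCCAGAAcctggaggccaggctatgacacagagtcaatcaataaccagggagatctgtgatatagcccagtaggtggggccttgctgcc
The SPINK5 window lay inside the deposited gene span, since the annotation used there starts further upstream. It held TATAAA from 30 to 25 bases before the start, which shares bases with the same motif on the opposite strand at 32 to 27 bases, and the TEAD motif on the opposite strand (CATTCC) at 169 to 164 bases. The SPINK1 window held no TATAAA but had TTCCCAGAA, a match to the STAT motif, from 91 to 83 bases before the start. It also held GGAATG at 223 to 218 bases and CATTCC at 93 to 88 bases, the latter overlapping the STAT match. Over all 35116 RefSeq windows of this length, 10.7% held TATAAA, 6.57% the STAT motif, 11.9% the TEAD motif and 6.57% the AP-1 motif, which neither gene had. These matches describe the letters of the windows and do not show that a factor binds there.

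The hairpin target is shown so that it can be compared with the transcripts of both SPINK genes. Capitals mark the 7 bases that pair with the seed of the guide strand.
shNUF2 target: cttcttaccattcAGCAATTt
All 21 bases were found in NUF2 transcripts of GENCODE release 29 (NUF2 spans 163266576 to 163355764 on chromosome 1). None of the 5 coding transcripts of SPINK5 and the 2 of SPINK1 contained the 7-base site, and the longest run they shared with the target was 6 bases for SPINK5 and 7 bases, in another stretch of the target, for SPINK1. Of the 12838 tested genes with a coding transcript, 22.8% held the site in the longest one.

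To check the labels, NUF2 itself was counted first. It had 903, 1096 and 1092 reads in the shNC libraries, against 281, 290 and 384 in the shNUF2 libraries, with a log2 fold change of -1.51 (SE 0.08) for shNUF2 against shNC. Markers of serous ovarian epithelium were present in part, as 8 of 10 had enough reads to be tested and their summed level was 1520 to 1620 CPM (reads scaled to a common library size) with shNC and 1660 to 1770 CPM with shNUF2. MSLN, PAX8, KRT7, KRT8 and KRT18 were detected in every library, whereas WT1 had at most 7 reads, SOX17 at most 14 and CDH1 at most 33 reads in any library, and WFDC2 (HE4) had 1 read in all. Members of this marker list went both ways, with 4 higher and 2 lower without overlap (35.2% and 35.4% of all genes tested). KRT8 was the one called, higher with shNUF2 (337 ± 11.1 to 692 ± 31.4 CPM, log2 fold change 1.04). It was not called on log2(FPKM + 1) or log2(FPKM + 0.1), with 0.99 and 1.0. PAX8, EPCAM and KRT18 were also higher without overlap but inside the fold limit, with log2 fold changes of 0.64, 0.69 and 0.55. MSLN (392 ± 16.0 to 233 ± 1.18 CPM) and MUC16 (48.6 ± 3.47 to 28.9 ± 3.89 CPM) were lower without overlap, both with a log2 fold change of -0.75. The cells are called here by their label, and the identity of the line was not tested.

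SPINK5 was the member with the most reads and the larger difference of the pair with enough reads for a fit (plot of reads per gene and library). It had 2994, 3679 and 3790 reads in the shNC libraries, against 292, 342 and 396 in the shNUF2 libraries. The groups did not overlap, and the lowest shNC library was far above the highest shNUF2 library. Scaled to library size by TMM, the level of SPINK5 was 220 ± 9.81 CPM with shNC and 24.8 ± 2.69 CPM with shNUF2 (SD, n = 3 each), which is 8.89-fold lower with shNUF2 (log2 fold change -3.15, SE 0.06). Among the 12874 genes tested, 6 had a lower log2 fold change. The members were chosen with the values of this same comparison known, so that these values are a description and no p-value is given. Per length, SPINK5 went from 49.9 ± 2.48 FPKM, a mean above that of 94.4% of the tested genes, to 5.47 ± 0.637 FPKM, above that of 48.8%. Since the RNA came from whole cultures, fewer cells that make SPINK5 and less SPINK5 RNA in each cell cannot be told apart.

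**Figure D1:**
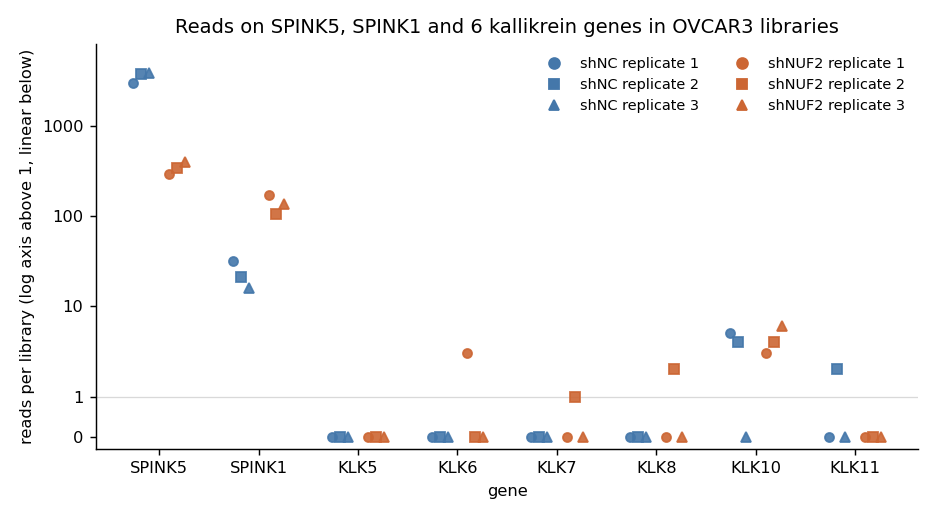
Reads counted on each of the 8 genes in each library; the vertical axis is logarithmic above 1 read and linear from 0 to 1, colours show the groups (blue shNC, orange shNUF2) and marker shapes the replicate numbers. SPINK5 is at 2994 to 3790 reads with shNC and 292 to 396 with shNUF2, SPINK1 goes the other way, and no kallikrein has more than 6 reads in any library.

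SPINK1 was higher with shNUF2. It had 32, 21 and 16 reads in the shNC libraries, against 169, 104 and 134 in the shNUF2 libraries, so that the lowest shNUF2 library was above the highest shNC library. Its level was 1.50 ± 0.679 CPM with shNC and 9.82 ± 2.40 CPM with shNUF2 (SD, n = 3 each), a 6.66-fold difference (log2 fold change 2.74, SE 0.25). SPINK1 had the wider relative spread of the pair, with 32 reads in shNC replicate 1 and 16 in shNC replicate 3. Per length it was 1.11 ± 0.500 FPKM with shNC, above 18.2% of the tested genes, and 7.11 ± 1.67 FPKM with shNUF2, above 56.0%. As the shNC level is close to 1 FPKM, the difference depends on the scale, and on log2(FPKM + 1) it was 1.95.

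On the FPKM scale, SPINK5 was above SPINK1 with shNC, and the levels met with shNUF2. SPINK5 was 28.5, 53.3 and 72.1 times the level of SPINK1 in the shNC libraries, whereas the ratio was 0.526, 1.00 and 0.899 in the shNUF2 libraries. In the shNUF2 group the libraries of SPINK5 (4.73 to 5.85 FPKM) and SPINK1 (5.85 to 9.0 FPKM) met, so that no order between them can be given beyond their spread. As a share of all reads on the 10 SPINK genes of the table, SPINK5 took 88.6%, 89.9% and 87.8% with shNC and 42.8%, 52.5% and 52.7% with shNUF2. The exact binomial 95% intervals of these shares, which cover counting error only, lay between 86.8% and 90.8% for the shNC libraries and between 39.1% and 56.4% for the shNUF2 libraries.

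**Figure D2:**
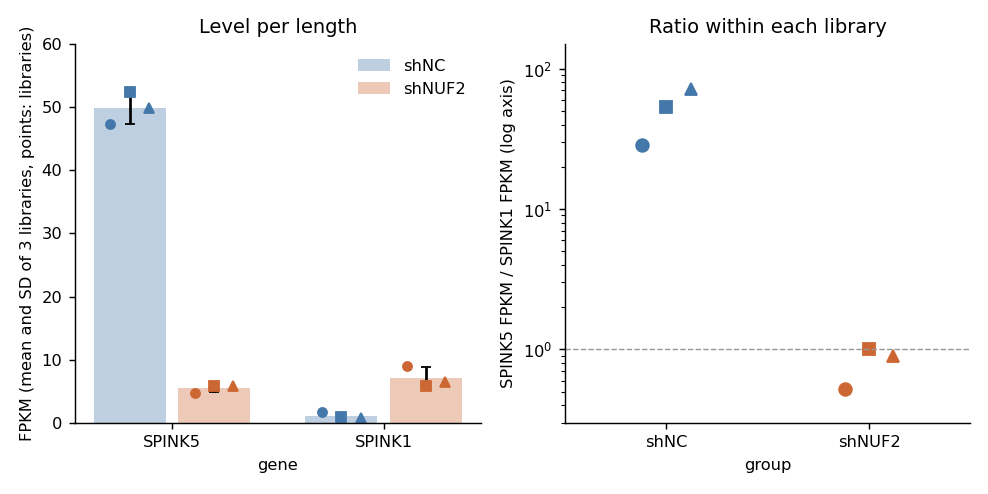
Left, FPKM of SPINK5 and SPINK1 in each library (points) with the mean (bar) and SD (line) of the 3 libraries of a group. Right, the ratio of SPINK5 to SPINK1 FPKM within each library on a logarithmic axis; it is between 28.5 and 72.1 with shNC and at or below 1.00 with shNUF2.

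Of the 8 members, 2 passed the filter on low counts, SPINK5 and SPINK1, and the groups did not overlap for either. Across the 12874 genes tested, 4.16% were lower with shNUF2 (log2 fold change below -1 and unadjusted p under 0.05 in edgeR's quasi-likelihood test), 9.41% were higher and 13.6% were changed in either direction. Without the fold limit, 67.6% had an adjusted p under 0.05. Groups that did not overlap were common in this comparison, with 35.2% of tested genes higher in every shNUF2 library than in any shNC library, 35.4% lower and 70.6% either. Nothing is read from the members' own count, because the same values chose them.

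**Figure D3:**
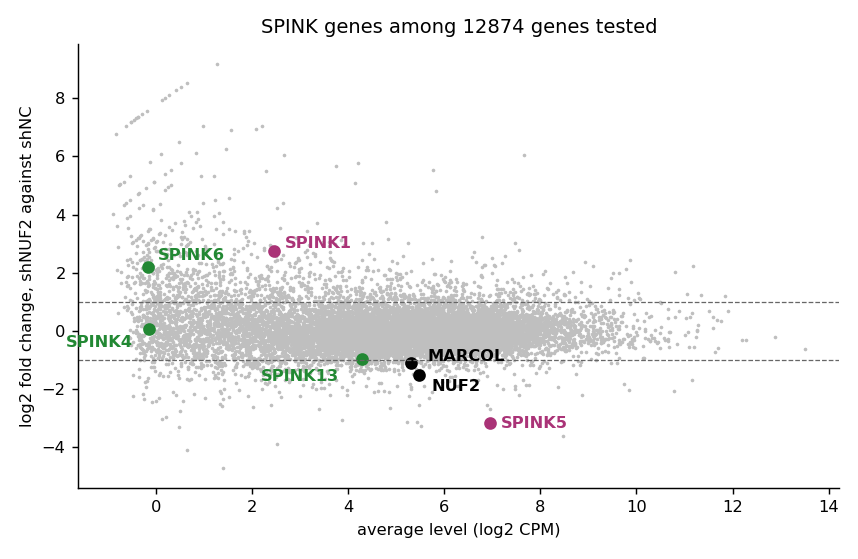
Log2 fold change of shNUF2 against shNC (vertical) by average level in log2 CPM (horizontal) for the 12874 genes tested (grey), with members in purple, other SPINK genes in green, and NUF2 and MARCOL, a gene 84.3 kb from SPINK5, in black; dashed lines mark log2 fold changes of -1 and 1. SPINK5 at -3.15 lies at the lower edge of the cloud and SPINK1 at 2.74 in its upper part.

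The profiles most like that of SPINK5 over the 6 libraries were those of SLC12A3, SLC6A9 and ALPI, by Euclidean distance between centred log2 CPM values among 7586 genes of like level. SLC12A3, the thiazide-sensitive sodium chloride cotransporter, had a distance of 0.134 and went from 1055, 1206 and 1330 reads to 105, 124 and 133 reads. SLC6A9, a glycine transporter, had a distance of 0.317 and a log2 fold change of -3.25, and ALPI, intestinal alkaline phosphatase, had 0.473 and -3.14. For SPINK1, among 3835 genes, the nearest were HCAR2, a receptor for nicotinic acid (distance 0.43, log2 fold change 2.94), the adhesion molecule CEACAM1 (0.451 and 2.66) and the adaptor gene SHC4 (0.563 and 2.86). With 3 libraries per group, such likeness mostly reflects a difference of similar size between the groups.

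The kallikreins were at or near 0 in both groups. KLK5, a trypsin-like peptidase that starts the skin cascade and the main target of SPINK5, had no read in any of the 6 libraries. KLK7, the chymotrypsin-like peptidase that cuts the junctions of cornified cells, had no read with shNC and 1 read in shNUF2 replicate 2. KLK6, a trypsin-like peptidase studied as an ovarian cancer marker, had no read with shNC and 3 reads, all in shNUF2 replicate 1. KLK8, known as neuropsin, had no read with shNC and 2 reads, both in shNUF2 replicate 2. KLK11 had 2 reads, both in shNC replicate 2, and none with shNUF2. These 5 genes thus had 2 reads with shNC and 6 with shNUF2 in all, and where reads occurred they came from 1 library per gene.

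KLK10, also named NES1 after its presence in normal epithelial cells, had reads in more than 1 library. It had 5, 4 and 0 reads in the shNC libraries, against 3, 4 and 6 in the shNUF2 libraries, and the groups overlapped. The ratio of shNUF2 to shNC, scaled by library size, was 1.65, with an exact 95% interval of 0.652 to 4.37 from counting error alone, so that a difference was not detectable at this depth. Its highest level was 0.104 FPKM.

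With a limit of 3 reads over the 3 libraries, no read in a group allows a level of up to 0.0633 CPM with shNC and 0.0723 CPM with shNUF2. The upper end of the exact 95% interval for 0 reads is higher, at 0.0778 CPM with shNC and 0.0889 CPM with shNUF2. The mean level of SPINK5 with shNC was 3480 times the limit of 0.0633 CPM. The 6 kallikreins together had 5, 6 and 0 reads in the shNC libraries, against 6, 7 and 6 in the shNUF2 libraries. None of them passed the filter on low counts, and no fold change is given for them. Reads over KLK8 and KLK9 could also be lost to AC011473.4, a readthrough gene that overlaps both and had 0 reads itself, and several kallikreins have antisense neighbours, from which they can be told apart only where the counting used strand.

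The low level held for the whole cluster. All 15 kallikreins of chromosome 19 had 54 reads with shNC and 69 with shNUF2 (17, 25 and 12 against 28, 15 and 26 reads per library), and none of the 16 genes of the table within the cluster could be tested. KLK5, KLK9, KLK12 and KLK15 (4 genes) had no read in any library. KLK14, a trypsin-like activator of other kallikreins and another target of SPINK5, had the highest counts, with 5, 9 and 9 reads against 18, 6 and 8. Its ratio was 1.59 (exact 95% interval 0.901 to 2.84), and the groups overlapped. The prostate kallikreins KLK2 and KLK3 (PSA) had 3 and 2 reads over all libraries. The name of the gene set is thus met by SPINK5 and SPINK1, while the kallikreins themselves were scarcely measured in these cells.

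To see whether the difference in SPINK5 extended to its surroundings, the genes within 250 kb of it were compared. The window held 12 genes, of which 7 were SPINK genes, and 4 genes besides the members could be tested. MARCOL, 84.3 kb from SPINK5, had 756, 851 and 938 reads with shNC, against 379, 272 and 397 with shNUF2. It fell, with a log2 fold change of -1.09 (SE 0.08, adjusted p = 1.09e-11, quasi-likelihood test of edgeR, Benjamini-Hochberg adjustment), although without shNUF2 replicate 2 the value was -0.98 and no longer past the fold limit. SPINK6, a Kazal-type inhibitor of kallikreins in skin 65.4 kb from SPINK5, had 5, 4 and 4 reads with shNC, against 18, 16 and 20 with shNUF2 (log2 fold change 2.21, SE 0.48). It passed the filter on low counts through the shNUF2 libraries alone, so that it could only be called higher, and its values are given as a description.

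SPINK13, 130.8 kb away, had 342, 374 and 490 reads with shNC, against 185, 171 and 183 with shNUF2. Its groups did not overlap and its log2 fold change of -0.96 (SE 0.11, adjusted p = 1.23e-08 by edgeR) was just inside the fold limit, and it passed the limit with -1.0, -1.02 and -1.0 without shNC replicate 1, shNC replicate 2 and shNUF2 replicate 1. FBXO38, a ubiquitin ligase subunit gene 246.6 kb away, had a log2 fold change of -0.08 (SE 0.08, adjusted p = 0.396 by edgeR). SPINK7, an inhibitor of the esophageal lining, was too low to be tested, with 0, 1 and 1 reads against 9, 5 and 2 reads (ratio 9.13, exact 95% interval 2.15 to 81.9 from counting error alone).

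**Figure D4:**
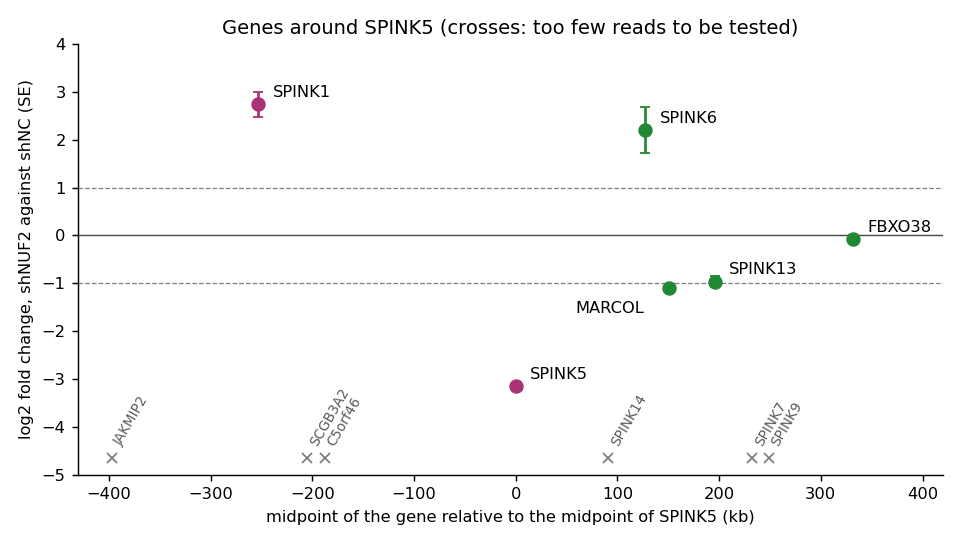
Log2 fold change of shNUF2 against shNC with its SE for the genes within 250 kb of SPINK5, placed by the distance of their midpoints from that of SPINK5 in kb; members are purple, other genes green, and crosses at the bottom mark genes with too few reads to be tested. SPINK1 (2.74) and SPINK6 (2.21) lie above 1, SPINK5 (-3.15) and MARCOL (-1.09) below -1, and FBXO38 (-0.08) near 0.

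The other genes of the pathway were taken from 6 lists, of other kallikreins, other SPINK genes, other protease inhibitors, trypsin-like and membrane-anchored serine proteases, kallikrein substrates and receptors, and steroid receptors known to control kallikreins. Of 73 genes, 27 could be tested, 7 were called higher (25.9% of those tested, against 9.41% of all genes tested) and 0 lower (against 4.16%), and the median log2 fold change was 0.30 against -0.013 for all genes. Of the 7, SPINK6 and PRSS22 passed the filter on low counts through the shNUF2 libraries alone, so that they could only be called higher, and the share is not read as support for a direction. By an adjusted p under 0.05 with no fold limit, 13 were higher and 4 lower (67.6% of all genes tested in either direction). The lists were drawn up with earlier results of these libraries known, and 28 of the 73 genes had 3 reads or fewer in every library. The plot of related genes shows those tested and reported here.

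Among other SPINK genes, 3 of 8 could be tested and SPINK6 alone was called. SPINK4, a goblet cell gene, had 7, 14 and 15 reads against 7, 13 and 13 (log2 fold change 0.07, SE 0.45), and SPINK2, SPINK8 and SPINK14 had none. Of 16 other inhibitors, 5 were tested and 2 were called higher. PI3 (elafin), an elastase inhibitor of epithelia, had 173, 154 and 165 reads with shNC, against 901, 810 and 837 with shNUF2. The groups were far apart, and the log2 fold change was 2.56 (SE 0.10, adjusted p = 3.51e-18 by edgeR). Its relative SLPI, the secretory leukocyte peptidase inhibitor, was the most abundant tested inhibitor per length (326 ± 52.8 FPKM with shNC and 295 ± 17.8 with shNUF2), with a log2 fold change of -0.11 (SE 0.07).

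SERPINF2, the plasmin inhibitor, had 19, 15 and 19 reads against 43, 33 and 19, and its groups overlapped at 19 reads. Its log2 fold change of 1.04 (SE 0.36, adjusted p = 0.0127 by edgeR) was 0.74 without shNUF2 replicate 1, 0.92 without shNC replicate 2 and 0.97 without shNUF2 replicate 2, and not called there. SPINT2, a Kunitz-type inhibitor of matriptase, had a log2 fold change of 0.30 (SE 0.19), and SPINT1 had at most 5 reads in any library.

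Of 19 serine proteases, 8 were tested and 2 were called higher. PRSS8 (prostasin), a membrane-anchored protease that acts with matriptase in epithelia, had 105, 76 and 82 reads with shNC, against 281, 210 and 305 with shNUF2. It rose with a log2 fold change of 1.78 (SE 0.16, adjusted p = 1.19e-10 by edgeR), whereas ST14, which encodes matriptase, had 0.08 (SE 0.18, adjusted p = 0.712). PRSS22, a tryptase of the airways, had 8, 6 and 3 reads with shNC, against 74, 56 and 75 with shNUF2 (log2 fold change 3.75, SE 0.35), and could only be called higher, having passed the filter through the shNUF2 libraries alone. The trypsins PRSS1, PRSS2 and PRSS3, the proteases that SPINK1 inhibits in the pancreas, had 0, 1 and 4 reads over all 6 libraries. The most abundant protease of the list per length, PRSS21 (testisin), had 71.1 ± 3.75 FPKM with shNC and 58.7 ± 2.18 FPKM with shNUF2 (log2 fold change -0.24, SE 0.05).

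Of 13 substrates and receptors, 5 were tested. PLAU, the urokinase whose precursor kallikreins can activate, had 119, 135 and 217 reads against 298, 310 and 361, and was the one called higher (log2 fold change 1.24, SE 0.13, adjusted p = 3.90e-09 by edgeR). The protease-activated receptors F2R, F2RL1 and F2RL2 had log2 fold changes of 0.44, 0.24 and 0.71 and stayed within the fold limit. The skin substrates DSG1, DSC1 and DSG3 (desmosomal cadherins) had at most 3 reads in any library and CDSN (corneodesmosin) at most 9. Of 7 steroid receptors, 6 were tested and ESR1, the estrogen receptor, rose from 79, 139 and 108 reads to 224, 185 and 234 reads (log2 fold change 1.17, SE 0.15, adjusted p = 1.08e-07 by edgeR). It was 0.49 on log2(FPKM + 1), where it was not called. VDR, the vitamin D receptor, had a log2 fold change of 0.78 (SE 0.11), and PGR had reads in 1 library alone, with 5.

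**Figure D5:**
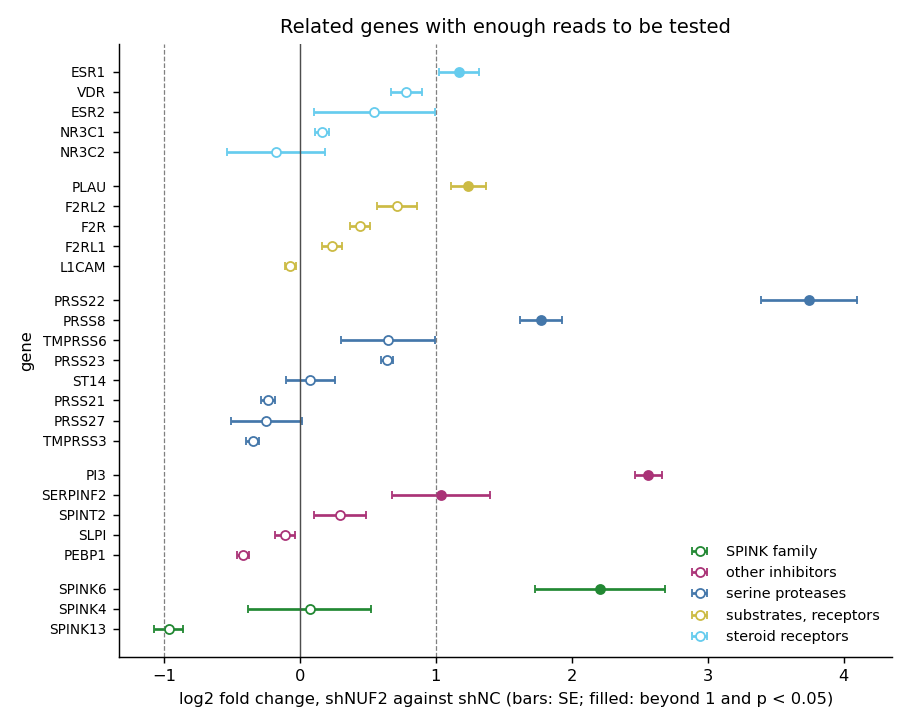
Log2 fold change of shNUF2 against shNC with its SE (horizontal) for tested genes related to SPINK5 and the kallikreins, grouped by list and colour; filled points are past a log2 fold change of 1 in size with an unadjusted p under 0.05, and dashed lines mark that limit. The 7 filled points, from SERPINF2 at 1.04 to PRSS22 at 3.75, all lie to the right.

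Since SPINK5 is a gene of cornifying squamous epithelium, markers of that tissue were counted beside it. Of 13 markers, 5 were tested and 3 were called higher with shNUF2 (9.41% over all genes tested), the direction opposite to SPINK5, and 4 had 3 reads or fewer in every library. Of the 3, KRT14 and CRCT1 passed the filter on low counts through the shNUF2 libraries alone and could only be called higher. TP63 also needed shNUF2 libraries to pass it, as its shNC libraries alone would not have been enough. The summed level was 23.2 to 45.2 CPM with shNC and 28.9 to 43.2 CPM with shNUF2, so that the groups overlapped. Most of that sum was KRT10, a keratin of upper skin layers, with 26.7 ± 13.5 CPM and 26.2 ± 6.87 CPM. The other 4 tested markers (KRT14, TP63, CRCT1 and TGM1) were each higher in every shNUF2 library than in any shNC library, as were 35.2% of all genes tested, and TGM1 was not called. Of the defining markers, KRT5 had at most 5 reads in any library and IVL (involucrin) had reads in 1 library alone, with 5. TP63 had 15, 13 and 6 reads with shNC, against 30, 27 and 32 with shNUF2 (log2 fold change 1.56, SE 0.38), and KRT14 had 2, 0 and 0 against 12, 12 and 20. CRCT1, a cornifying gene, was at 0 with shNC and had 27, 15 and 19 reads with shNUF2, which is 23.2-fold above 3 reads over the shNC group. On log2(FPKM + 1), TP63 (0.22) and KRT14 (0.51) were not called, nor was TP63 on log2(FPKM + 0.1), with 0.97.

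Every shNUF2 library had reads on more genes (15435 to 15536) than any shNC library (14582 to 14691), and the part of this in the rises of genes with few reads was not tested. Leukocyte markers summed to 1.57 to 2.38 CPM with shNC and 4.01 to 6.46 CPM with shNUF2, and endothelial markers to 1.75 to 3.38 CPM and 3.41 to 5.0 CPM (2 of 4 tested, CDH5, which passed the filter through the shNUF2 libraries alone, called higher, but with 0.28 not called on log2(FPKM + 1)). Fibroblast markers summed to 84.0 to 90.6 CPM and 69.0 to 76.3 CPM (3 of 6 tested). Nearly all of this sum was the collagen gene COL1A1, which had 81.7 ± 3.26 CPM with shNC and 62.4 ± 3.06 CPM with shNUF2, without overlap (log2 fold change -0.39, SE 0.06, adjusted p = 1.23e-06 by edgeR, inside the fold limit). DCN (decorin) was called higher (3.66 ± 1.05 to 8.48 ± 1.02 CPM, log2 fold change 1.22), but not on log2(FPKM + 1) or log2(FPKM + 0.1), with 0.36 and 0.97. COL1A2 and LUM had at most 2 reads in any library. Whether any of these moved with SPINK5 or SPINK1 for a shared reason was not tested.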

How the data were processed

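RNA-seq of 3 shNC and 3 shNUF2 libraries of OVCAR3 cells was analysed, with groups and replicate numbers taken from the sample titles. The authors deposited unnormalized read counts and FPKM values for 19973 genes. The deposited FPKM values are proportional to the count divided by gene length and library total, within 2.71e-07 in relative terms. The submitters' processing notes list cutadapt, HISAT, HTSeq and GRCh38.p13, with versions, parameters and annotation release not given in the sources used here. Strand use in counting is likewise not given.

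Counts were tested with edgeR 4.0.16 in R 4.3.3 (filterByExpr, TMM, quasi-likelihood test, no covariate), which left 12874 genes. The SE of a log2 fold change was its size over the square root of F. P-values were adjusted by Benjamini-Hochberg across all genes tested. A gene was called where its log2 fold change was beyond 1 with p under 0.05 before adjustment, the limits in the paper's methods read on the log2 scale. CPM were scaled by TMM. Depth was 13057534 to 16995452 counts per library, and intervals and limits for 0 reads (3 reads) cover counting error only.

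The members and lists were chosen with earlier results of these data known. Named genes are the members, NUF2, list genes passing the filter (called ones with values), called genes within 250 kb of SPINK5 or in the kallikrein cluster, and the 3 nearest profiles of each tested member (log2 CPM, prior count 2, mean within 2 log2 units). Other genes were named after their values were seen. Alternatives were other scalings, filters and thresholds, DESeq2 1.42.0, limma 3.58.1 on log2 FPKM, a replicate block and each library left out. The fits were tested on simulated data. The rest used pandas 2.3.3, scipy 1.17.1 and numpy 2.4.6 in Python 3.11.15. No protein sequences were used here, and some list genes are not reported here.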

Additional observations from a re-analysis of the deposited data

How the results depend on the processing

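SPINK5 kept its direction and side of the limit in all 15 alternatives, with log2 fold changes from -3.20 to -2.98 (-3.20 to -3.07 with a library left out), the value nearest 0 being on log2(FPKM + 1). SPINK1 did so too, with 1.95 on log2(FPKM + 1) and 2.47 to 3.12 with a library left out. Without a filter on low counts, 2 members were below -1 and 4 above 1, since kallikreins with 1 to 3 reads then entered, whose fitted values are no bound, and 1 related gene was called lower. Library totals in place of TMM also gave 1 related gene lower, and the median log2 fold change of all genes was then -0.049. On log2(FPKM + 1), 430 genes were higher and 206 lower against 1212 and 536, and with adjusted p and no fold limit 4363 and 4345, of which 13 and 4 were related genes. With a library left out, 6 to 8 related genes were higher and 0 to 1 lower. No shared effect of replicate number was seen (correlations of same-numbered deviations 0.020, 0.005 and -0.030). These values cannot show whether same-numbered libraries were prepared together. With a replicate block, 1207 genes were higher and 536 lower and 6 related genes were called higher, SERPINF2 having 0.99. SERPINF2 was not called in 7 alternatives (0.39 to 1.00). Leaving out a library turned the direction of 3 genes that were not called, SPINK4 (range -0.14 to 0.29, below 0 without shNC replicate 1 or shNUF2 replicate 2), SLPI (-0.20 to 0.03, above 0 without shNC replicate 3) and ST14 (-0.06 to 0.16, below 0 without shNC replicate 2 or shNUF2 replicate 3). Of 685 values for 46 named genes, 19 were no longer called, 4 newly called and 5 turned in direction. Depth limits the kallikreins, none of which passed the filter on low counts, and the intervals given for KLK10 and KLK14 cover counting error only.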
